A study of Homo sapiens with 5 samples.

Results

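Genes of the endoplasmic reticulum (ER) folding machinery and of the unfolded protein response (UPR) were followed in SAS, a human cell line from a squamous carcinoma of the tongue. The genes were chosen by name for their known role: HSPA5, HSP90B1, HYOU1, CALR, PDIA4, MANF, DNAJB9, SDF2L1, HERPUD1 and XBP1. Earlier results of these data were known at that choice, so counts of these genes set beside all genes are descriptions. All 10 were among the 15187 genes listed in both deposited tables, and all 10 were among the 13123 genes that passed the filter on low counts and were tested. RNA-seq was done on 5 libraries. The 2 control libraries, shCtrl 1 and shCtrl 2, came from cells with a control short hairpin RNA, and the 3 knockdown libraries, shCCT2 1, shCCT2 2 and shCCT2 3, from cells with hairpin RNA against CCT2, a subunit of the cytosolic chaperonin CCT. They were deposited in 2 tables: shCtrl 1, shCCT2 1 and shCCT2 2 in the first, called set A here, and shCtrl 2 and shCCT2 3 in the second, set B. The labels give no hairpin sequence, vector, promoter or time after knockdown, nor do they say whether each library had a culture of its own. The p-values are therefore a measure of library-to-library spread only, and that spread may be technical.

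Proteins that enter the secretory pathway fold in the ER lumen with the help of chaperones, lectins and disulfide isomerases. When unfolded proteins build up there, the sensors IRE1, PERK and ATF6 signal to the nucleus. IRE1 splices the XBP1 messenger RNA, PERK slows translation and favours ATF4, and cleaved ATF6 is a transcription factor. ATF6 and spliced XBP1 bind elements upstream of chaperone genes, among them the ER stress response element (ERSE). Many carcinoma cells show an active UPR.

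These elements were looked up in the 250 bases before the annotated start of each gene. The 10 genes are textbook UPR targets, so matches upstream of them are a description and no independent result. The sequences are from RefSeq on GRCh38.p14, in which all 10 genes matched, with 12 windows (PDIA4 and XBP1 have a second start, and neither second window held a match). Motifs were searched on both strands as exact letters: ERSE as CCAAT and CCACG with 9 bases of any kind between them, ERSE-II as ATTGG and CCACG with 1 such base between them, and the core of the UPR element (UPRE) as TGACGTG. An ERSE lay upstream of HSPA5, HSP90B1, CALR and XBP1, and an ERSE-II upstream of HYOU1, HERPUD1 and SDF2L1, so 7 of 10 genes held 1 or the other. Of all 35116 windows of the same length, 0.074% held an ERSE, 0.0513% an ERSE-II and 0.125% either. These are shares of windows, whereas the 7 of 10 is a count of genes. The UPRE core was in 1.68% of all windows and, among the 10 genes, only in that of HYOU1. MANF, PDIA4 and DNAJB9 held none of these letters in the window. A match is a string of letters, and binding was not measured.

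The windows of 4 genes are shown, as 2 genes whose level was lower in shCCT2 3 (HSP90B1, CALR) and 2 whose level was not (HERPUD1, XBP1). They run 5′ to 3′ on the gene's strand and end at the base before the annotated start, and capitals mark the ERSE or ERSE-II match. The window of HSP90B1 is chr12:103930160-103930409 on the plus strand, that of CALR chr19:12938359-12938608 on the plus strand, that of HERPUD1 chr16:56931892-56932141 on the plus strand and that of XBP1 chr22:28800570-28800819 on the minus strand.
HSP90B1: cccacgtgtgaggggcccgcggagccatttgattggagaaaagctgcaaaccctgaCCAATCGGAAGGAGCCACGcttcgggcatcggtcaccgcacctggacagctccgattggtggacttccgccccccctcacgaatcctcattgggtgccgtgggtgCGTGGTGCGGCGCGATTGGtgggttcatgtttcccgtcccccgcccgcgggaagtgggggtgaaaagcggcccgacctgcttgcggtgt
CALR: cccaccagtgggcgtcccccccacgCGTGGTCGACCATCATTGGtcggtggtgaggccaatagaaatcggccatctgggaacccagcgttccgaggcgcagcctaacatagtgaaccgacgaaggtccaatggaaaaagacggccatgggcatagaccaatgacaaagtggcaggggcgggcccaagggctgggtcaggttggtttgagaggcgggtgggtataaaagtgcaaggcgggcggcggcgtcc
HERPUD1: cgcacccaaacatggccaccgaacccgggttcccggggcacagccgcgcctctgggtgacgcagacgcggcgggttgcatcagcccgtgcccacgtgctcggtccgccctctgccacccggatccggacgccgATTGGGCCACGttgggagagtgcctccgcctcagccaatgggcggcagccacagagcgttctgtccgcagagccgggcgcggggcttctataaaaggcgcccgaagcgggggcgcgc
XBP1: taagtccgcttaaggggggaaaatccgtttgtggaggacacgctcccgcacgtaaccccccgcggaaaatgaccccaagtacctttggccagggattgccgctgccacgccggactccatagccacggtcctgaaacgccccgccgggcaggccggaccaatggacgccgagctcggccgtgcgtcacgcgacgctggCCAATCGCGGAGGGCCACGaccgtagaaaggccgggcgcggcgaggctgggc

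HSP90B1 was the 1 gene of the 10 with a pair of ERSE matches, at -194 to -176 on the forward strand and at -89 to -71 on the reverse strand, counted back from -1 at the base before the start. The CALR match lay at -225 to -207 on the reverse strand and that of XBP1 at -52 to -34 on the forward strand. HSPA5 held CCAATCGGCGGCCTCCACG at -66 to -48. HERPUD1 held its ERSE-II at -117 to -107, and SDF2L1 held one on the reverse strand (CGTGGACCAAT) at -188 to -178. HYOU1 held 2 reverse ERSE-II matches with the same letters, CGTGGTCCAAT, at -185 to -175 and at -79 to -69, and its UPRE core at -188 to -182 overlapped the first of these.

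**Figure D1:**
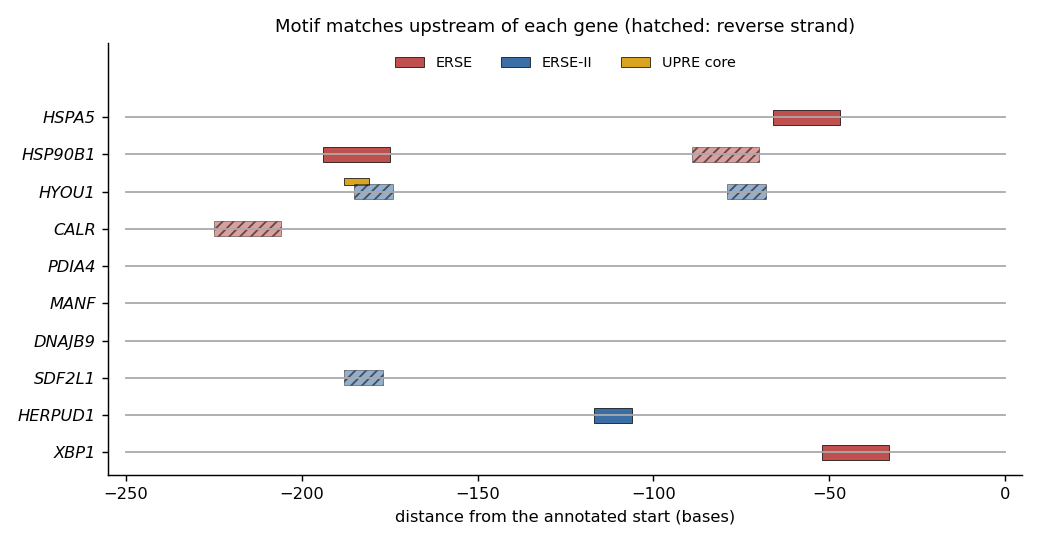
Motif matches in the 250 bases before the annotated start of each of the 10 genes, with the distance from the start in bases on the x axis and 1 line per gene. Boxes are ERSE (red), ERSE-II (blue) and UPRE core (yellow) matches, hatched on the reverse strand. 7 genes hold an ERSE or ERSE-II match, and MANF, PDIA4 and DNAJB9 hold none.

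The libraries held between 16913600 and 18156600 estimated counts, and the 10 genes had between 197 and 27531 counts each. Levels are given as CPM, the usual count normalised to library size, after scaling of the libraries by the trimmed mean of M-values (TMM), and depend on transcript length, so they are compared within a gene only. The targeted gene CCT2 was lower in all 3 knockdown libraries. It stood at 629.9 and 642.4 CPM in shCtrl 1 and shCtrl 2, and at 296.1, 272.4 and 260.2 CPM in shCCT2 1, shCCT2 2 and shCCT2 3. The unadjusted p of CCT2 was 0.000435 with edgeR. Its adjusted p was 0.542 with edgeR and 3.81e-05 with DESeq2, and 0.999 with edgeR without the table as a term. The set B libraries stood apart from those of set A. The summed level of 8 squamous epithelial markers ran from 3217 to 5027 CPM in set A and was 1327 and 2041 CPM in set B. Of the 8, 7 were lower in shCtrl 2 than in shCtrl 1, where 49.9% of all tested genes were higher. CDH1, the epithelial cadherin, had the widest gap, with 251.5 CPM in shCtrl 1 and 10.6 CPM in shCtrl 2, while the keratin gene KRT6A had 40.3 and 64.8 CPM. Within set B, 5 of the 8 markers were at least 1.5-fold higher in shCCT2 3 than in shCtrl 2, against 19.8% of all tested genes. By that fold 1 marker, KRT17, was lower, against 24.5% of all tested genes. The median log2 change of the 8 markers was 0.76, and KRT6A reached 630.4 CPM. Markers of other cell types were low: of 6 fibroblast genes 2 were listed in both tables (at most 11.8 CPM summed), DCN and LUM were in neither, 5 of 6 endothelial genes summed to between 2.08 and 7.48 CPM, and the leukocyte genes summed to between 44.2 and 120.9 CPM, most of it CD68, with PTPRC between 0.05 and 6.51 CPM. The part of these differences in the results below was not tested. The table and any difference between the cultures cannot be told apart, and in bulk RNA fewer expressing cells and less RNA per cell cannot be told apart either. Every knockdown library is therefore set beside the control deposited with it.

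None of the 10 genes passed the test of the hairpin, and neither did any of the 13123 genes entered in the quasi-likelihood test of edgeR with the table as a term (0% called, lowest Benjamini-Hochberg adjusted p = 0.542). Genes with unlike unadjusted p in edgeR shared that adjusted value. They included CCT2 (0.000435), MANF (0.0324), CALR (0.0901), PDIA4 (0.0928) and HSP90B1 (0.136). At an unadjusted p under 0.05, 972 genes (7.41%) were found, among them 1 of the 10. This count rested on single libraries. It was 1582 of 13032 tested genes without shCCT2 2, with MANF among them. Leaving out shCCT2 1 gave 492 of 13040 tested genes and leaving out shCCT2 3 gave 255 of 12623, with 0 of the 10 in each. Leaving out a control leaves 1 control library, so no such count is given for it here. DESeq2's Wald test called 17 genes and none of the 10. The fitted change was below 0 for 9 of 10 genes, against 51.5% of all genes tested, with a median log2 change of -0.28 against -0.02 for all genes. That median was -0.63 without shCtrl 1, where set B alone gives the change, and -0.11 without shCtrl 2 or without shCCT2 3, where set A alone gives it. The genes are therefore described set by set. The median over the 10 was -0.17 (log2) for shCCT2 1, -0.10 for shCCT2 2 and -0.66 for shCCT2 3, where all tested genes had medians of -0.001, -0.0003 and -0.02.

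**Figure D2:**
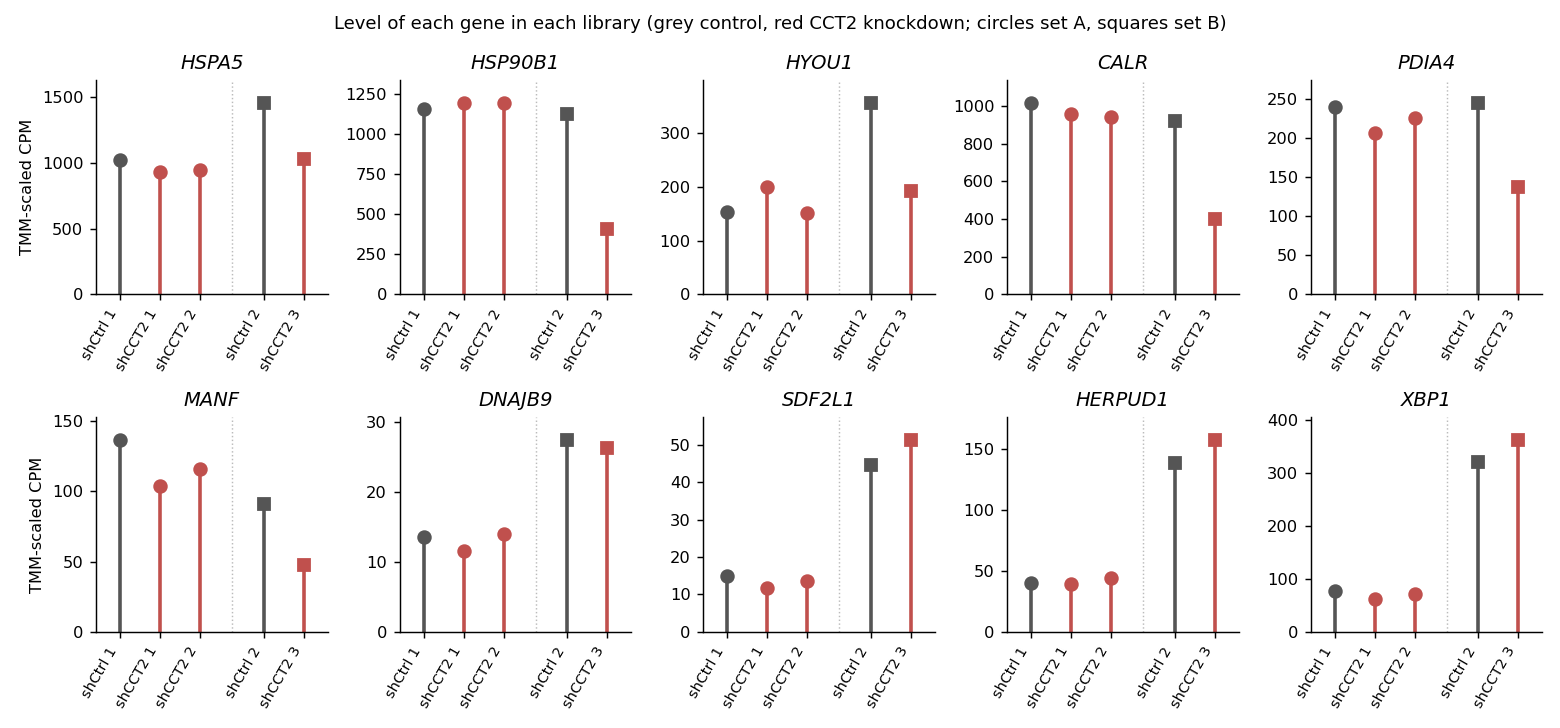
TMM-scaled CPM (y axis, from 0, a scale for each gene) of the 10 genes in each library (x axis); grey stems are control and red stems CCT2 knockdown libraries, with circles for set A and squares for set B, and each stem is 1 library with no error bar. HSP90B1 and CALR are at 408.8 and 398.7 CPM in shCCT2 3 and at 921.8 CPM or above in the other libraries, while HERPUD1, SDF2L1 and XBP1 are high in both set B libraries.

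The abundant chaperones of the lumen come first. HSPA5 encodes BiP, the ER member of the HSP70 family, which binds nascent chains and holds the UPR sensors inactive. It stood at 1027 CPM in shCtrl 1, 935.4 in shCCT2 1 and 948.1 in shCCT2 2, and at 1460 CPM in shCtrl 2 and 1034 in shCCT2 3. Both knockdown libraries of set A were thus at 91.1% and 92.3% of their control, shCCT2 3 was at 70.9% of its own, and shCCT2 3 was still at the level of shCtrl 1. The fitted log2 change was -0.29 ± 0.20 (SE over 2 control and 3 knockdown libraries; adjusted p = 0.565 with edgeR).

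HSP90B1 encodes GRP94, the HSP90 of the ER, whose clients include integrins and Toll-like receptors. Its level was 1160 CPM in shCtrl 1, 1197 in shCCT2 1 and 1195 in shCCT2 2, and 1127 CPM in shCtrl 2 and 408.8 in shCCT2 3. The 4 other libraries lay close together and shCCT2 3 alone was low, at 36.3% of its control. The log2 changes were 0.05, 0.04 and -1.46 in shCCT2 1, 2 and 3, each with a counting error of 0.02 or less (SE), and 7.35% of all tested genes had a change as low or lower in shCCT2 3. The fitted change was -0.62 ± 0.37 (SE, adjusted p = 0.542 with edgeR), and it was 0.04 without shCtrl 2 or without shCCT2 3.

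CALR encodes calreticulin, the soluble lectin that retains glycoproteins with monoglucosylated glycans and buffers calcium in the lumen. It stood at 1017 CPM in shCtrl 1, 958.2 in shCCT2 1 and 943.7 in shCCT2 2, and at 921.8 CPM in shCtrl 2 and 398.7 in shCCT2 3. As for HSP90B1, shCCT2 3 alone was far from the rest, at 43.3% of its control, with log2 changes of -0.09, -0.11 and -1.21 in shCCT2 1, 2 and 3. The fitted change was -0.59 ± 0.29 (SE, adjusted p = 0.542 with edgeR). CANX, which encodes the membrane-bound partner lectin calnexin, stood at 1020, 1375 and 1016 CPM in shCtrl 1, shCCT2 1 and shCCT2 2, and at 973.3 and 844.1 CPM in shCtrl 2 and shCCT2 3, so its log2 change in shCCT2 3 was -0.21.

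HYOU1 encodes GRP170, a large HSP70-like protein that exchanges nucleotide on BiP. Its level was 153.1 CPM in shCtrl 1, 200.1 in shCCT2 1 and 152.4 in shCCT2 2, and 357.1 CPM in shCtrl 2 and 193.6 in shCCT2 3. shCtrl 2 was the high library here, and the knockdown library of set B was at the level of those of set A. The log2 changes of 0.39, -0.01 and -0.88 in shCCT2 1, 2 and 3 did not share a sign. The fitted change of -0.28 (adjusted p = 0.692 with edgeR) was 0.20 without shCtrl 2 or without shCCT2 3. SIL1, which encodes the other nucleotide exchange factor of BiP, had 0.09, 0.11 and -0.23.

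PDIA4 encodes ERp72, a protein disulfide isomerase. It stood at 239.0 CPM in shCtrl 1, 206.6 in shCCT2 1 and 225.3 in shCCT2 2, and at 244.8 CPM in shCtrl 2 and 137.5 in shCCT2 3. All 3 knockdown libraries were below both controls, at 86.5%, 94.3% and 56.3% of their own control. PDIA4 was the 1 gene of the 10 for which the knockdown and control levels did not overlap, where 8.28% of all tested genes had every knockdown library below every control. The fitted change was -0.45 ± 0.23 (SE, adjusted p = 0.542 with edgeR).

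MANF encodes a small secreted and ER-resident protein that binds BiP and was named for its protection of neurons. It stood at 136.4 CPM in shCtrl 1, 103.4 in shCCT2 1 and 115.9 in shCCT2 2, and at 90.6 CPM in shCtrl 2 and 47.6 in shCCT2 3. Each knockdown library was below its own control, at 75.9%, 85.1% and 52.7%, but the set A knockdown libraries were above shCtrl 2. The fitted change was -0.58 ± 0.21 (SE, adjusted p = 0.542 with edgeR), and in the fit of all 5 libraries MANF was the 1 gene of the 10 whose unadjusted p lay under 0.05, in a direction in which 4.57% of all tested genes were found at that level. Without shCCT2 3 the fitted changes were -0.13 for HSPA5, -0.15 for PDIA4, -0.10 for CALR and -0.31 for MANF. These were the 4 genes lower in all 3 knockdown libraries, against 21.4% of all tested genes.

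The remaining genes belong to the inducible and regulatory side of the response. XBP1 encodes the transcription factor made from the messenger RNA that IRE1 splices. Counts per gene do not separate the spliced from the unspliced form. XBP1 stood at 77.8 CPM in shCtrl 1, 61.8 in shCCT2 1 and 71.1 in shCCT2 2, and at 319.8 CPM in shCtrl 2 and 362.0 in shCCT2 3. The sets did not overlap, and within them the log2 changes were -0.33, -0.13 and 0.18 in shCCT2 1, 2 and 3. The fitted change was -0.05 ± 0.19 (SE, adjusted p = 0.917 with edgeR).

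HERPUD1 encodes a membrane protein of the complex that sends misfolded proteins to degradation. It stood at 39.9 CPM in shCtrl 1, 39.1 in shCCT2 1 and 44.1 in shCCT2 2, and at 138.2 CPM in shCtrl 2 and 157.2 in shCCT2 3. It was the 1 gene of the 10 with a fitted change above 0, at 0.11 ± 0.18 (SE, adjusted p = 0.780 with edgeR). Its 2 set B libraries were high and all 3 set A libraries low, whichever hairpin they carried.

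SDF2L1 encodes a lumenal protein that works with BiP and its J-domain partners to keep clients soluble. Its level was 14.9 CPM in shCtrl 1, 11.6 in shCCT2 1 and 13.5 in shCCT2 2, and 44.7 CPM in shCtrl 2 and 51.3 in shCCT2 3. The log2 changes of -0.35, -0.14 and 0.20 in shCCT2 1, 2 and 3 carried counting errors of 0.14, 0.13 and 0.07 (SE), so the value in shCCT2 2 was close to its counting error. DNAJB9 encodes ERdj4, a J-domain protein that brings BiP to IRE1 and represses it. DNAJB9 stood at 13.6 CPM in shCtrl 1, 11.6 in shCCT2 1 and 14.0 in shCCT2 2, and at 27.4 CPM in shCtrl 2 and 26.3 in shCCT2 3. Its log2 changes of -0.22, 0.04 and -0.06 were all within 2 counting errors (SE of 0.14, 0.13 and 0.09). The fitted changes were -0.06 for SDF2L1 (adjusted p = 0.928) and -0.07 for DNAJB9 (adjusted p = 0.902), both with edgeR.

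**Figure D3:**
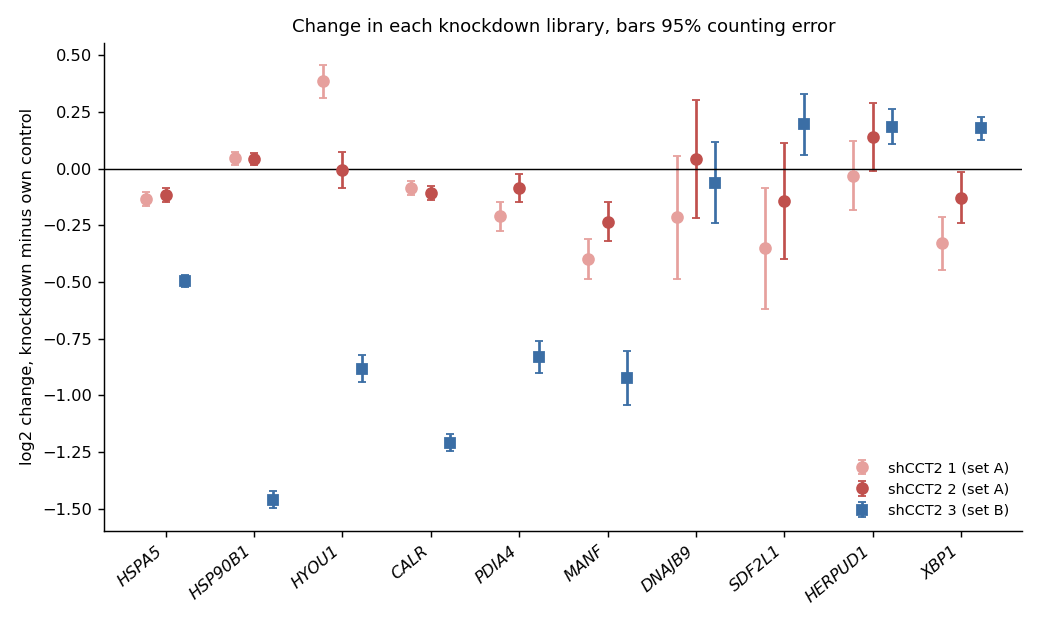
Log2 change of each knockdown library from the control of its own set (y axis) for the 10 genes (x axis), circles for shCCT2 1 and 2 of set A and squares for shCCT2 3 of set B. Bars are 95% intervals for counting error only. In shCCT2 3, HSP90B1, CALR, MANF, HYOU1 and PDIA4 lie between -1.46 and -0.83 HSPA5 at -0.50, DNAJB9 at -0.06, and HERPUD1, SDF2L1 and XBP1 between 0.18 and 0.20.

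Within set B the changes of the 10 genes ran from -1.46 to 0.20. HSP90B1, CALR, MANF, HYOU1 and PDIA4 were at least 1.5-fold lower in shCCT2 3 than in shCtrl 2, which makes 5 of 10, where 24.5% of all tested genes were. At a 2-fold threshold, 2 of 10 were lower (HSP90B1 and CALR), against 13.8% of all genes. HSPA5 (-0.50) and DNAJB9 (-0.06) lay between these genes and the 3 with a change above 0 (XBP1, HERPUD1 and SDF2L1). None of the 10 was 1.5-fold higher, against 19.8% of all genes. In shCCT2 1 and shCCT2 2, 0 of 10 passed 1.5-fold in either direction, where 10.4% and 3.09% of all genes were lower and 3.7% and 2.32% higher. There is 1 control and 1 knockdown library in set B, so these shares have no replicate check. ERSE or ERSE-II matches occurred over this whole range, upstream of HSP90B1, CALR and HYOU1, of HSPA5, and of XBP1, HERPUD1 and SDF2L1. Over the 30 tested genes with such a match, 18 were lower in shCCT2 3 (60%, median log2 change -0.15), against 50.9% and -0.02 over the 10628 tested genes with a window. With the 10 genes left out, 14 of 23 were lower (median -0.09). In the fit of all 5 libraries 12 of these 23 were lower (52.2%), against 50.9% of the tested genes with a window. The medians of the 23 in shCCT2 1 and shCCT2 2 were -0.007 and 0.002.

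Whether the change differed between the sets was tested with a set by hairpin term in edgeR, which leaves 1 residual degree of freedom. No gene passed (0% called, lowest adjusted p = 0.0932), while 17.2% of all genes and 3 of the 10 had an unadjusted p under 0.05. Set B minus set A, the difference in log2 change was -1.51 ± 0.28 (SE) for HSP90B1, with an adjusted p of 0.135 in edgeR. It was -1.11 ± 0.28 for CALR (adjusted p = 0.169) and -1.09 ± 0.36 for HYOU1 (adjusted p = 0.236), both with edgeR. For XBP1 it was 0.41 ± 0.31 (adjusted p = 0.527) and for HERPUD1 0.13 ± 0.30 (adjusted p = 0.854), again with edgeR.

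The 2 control libraries also differed from each other in many of these genes. With 1 control per set this is a description of 2 libraries, with no test. XBP1 was 4.09-fold higher in shCtrl 2 than in shCtrl 1, HERPUD1 3.43-fold, SDF2L1 2.93-fold, HYOU1 2.33-fold and DNAJB9 1.99-fold. These 5 of 10 were at least 1.5-fold higher, against 27.4% of all tested genes. HSPA5 was 1.42-fold higher, PDIA4, HSP90B1 and CALR had ratios of 1.02, 0.971 and 0.907, and MANF was the 1 gene lower by 1.5-fold or more (ratio 0.666, against 24.7% of all genes). Both set B libraries were above all set A libraries for XBP1, HERPUD1, SDF2L1, DNAJB9 and, by a narrow margin, HSPA5, which is 5 of 10 against 29.5% of all genes. HSP90B1, CALR and MANF were below in both, which is 3 of 10 against 28.7%. shCtrl 2 also serves as the control of shCCT2 3, so the levels of that library enter both comparisons.

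**Figure D4:**
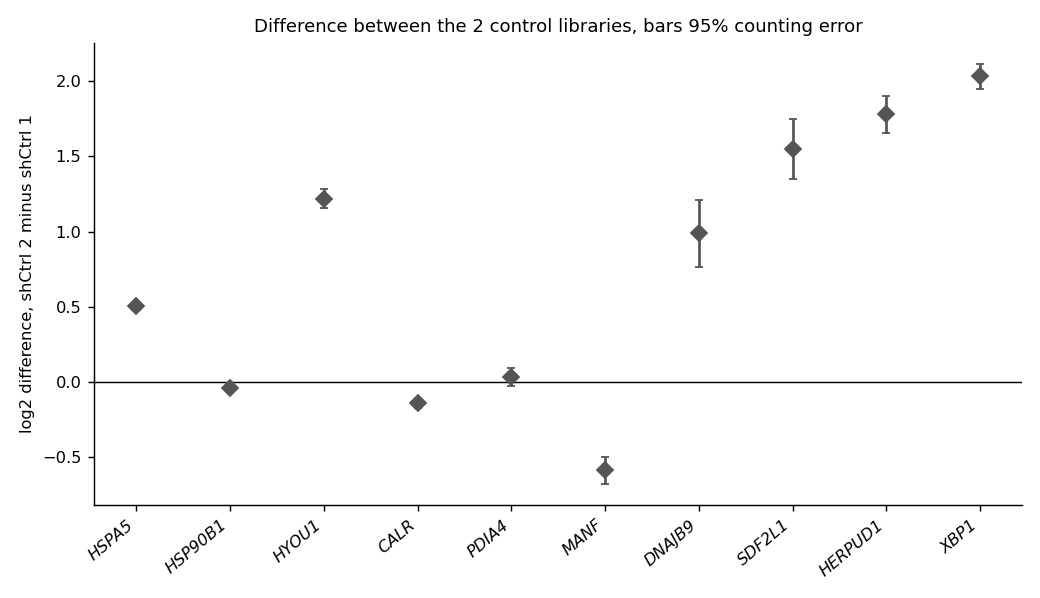
Log2 difference in TMM-scaled CPM between shCtrl 2 and shCtrl 1 (y axis) for the 10 genes (x axis), with 95% intervals for counting error only. XBP1, HERPUD1 and SDF2L1 lie between 1.55 and 2.03, HSP90B1, PDIA4 and CALR between -0.14 and 0.03, and MANF at -0.59.

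Other genes of the pathway were taken from lists chosen by function. Among the sensors, ERN1, which encodes IRE1, stood at 9.86, 9.84 and 7.58 CPM in shCtrl 1, shCCT2 1 and shCCT2 2, and at 36.5 and 38.0 CPM in shCtrl 2 and shCCT2 3, the same order of sets as for XBP1. EIF2AK3, which encodes PERK, had log2 changes of -0.39, 0.17 and -0.46 in shCCT2 1, 2 and 3. ATF6 had 0.34, 0.22 and 0.15, and its relative ATF6B -0.33, -0.08 and -0.47. MBTPS1, which encodes the protease that first cuts ATF6, had -0.05, 0.10 and -0.34. Of 9 genes in this list 8 were tested and 0 passed in either direction (edgeR). The fitted value was lower for 7 and higher for 1, with a median of -0.21. Of all tested genes 51.5% had a lower fitted value, the share to set beside this count and those of the lists below. In shCCT2 1, 2 and 3, 6, 4 and 6 of the 8 were lower, with medians of -0.09, -0.006 and -0.47.

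In the arm of PERK and ATF4, 0 of 10 passed (edgeR), with 5 fitted values on each side of 0 and a median of 0.10. Their levels differed between the sets: 9 of 10 were higher in shCtrl 2 than in shCtrl 1, against 49.9% of all tested genes, with a median log2 difference of 2.03, where all tested genes had -0.002. DDIT3, which encodes the pro-apoptotic factor CHOP, stood at 12.1, 8.01 and 13.7 CPM in shCtrl 1, shCCT2 1 and shCCT2 2, and at 48.1 and 77.5 CPM in shCtrl 2 and shCCT2 3. PPP1R15A, which encodes the GADD34 subunit that restores translation, was between 64.9 and 68.9 CPM in set A and at 318.3 and 308.5 CPM in shCtrl 2 and shCCT2 3. ASNS, asparagine synthetase, was at 89.6, 106.9 and 76.1 CPM in set A and at 339.1 and 290.2 CPM in set B, and the pseudokinase gene TRIB3 at 62.0, 85.5 and 57.1 CPM and at 204.7 and 239.8 CPM. ATF4 itself stood at 344.8 and 530.6 CPM in shCtrl 1 and shCtrl 2. Within set B, 3 of 10 genes of this arm were at least 1.5-fold higher in shCCT2 3 and 1 was lower (VLDLR), against 19.8% and 24.5% of all tested genes. The higher genes were SESN2, which encodes a stress-induced sestrin (2.61-fold), CHAC1, which encodes an enzyme that degrades glutathione (2.11-fold), and DDIT3 (1.60-fold). In set A, SESN2 had log2 changes of -0.15 and -0.27 and CHAC1 of 0.17 and -0.53 in shCCT2 1 and 2.

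All 26 other ER folding genes were tested and 0 passed (edgeR), with 15 fitted values lower and 11 higher and a median of -0.06. In shCCT2 3, 19 of 26 were lower, against 51.2% of all tested genes. By 1.5-fold or more, 7 of 26 were lower and 0 higher, against 24.5% and 19.8% of all tested genes. PDIA3, the isomerase that works with calreticulin and calnexin, had log2 changes of -0.22, -0.02 and -0.62 in shCCT2 1, 2 and 3, and DNAJC3, a J-domain partner of BiP, had -0.04, -0.11 and -0.76. PDIA6, another isomerase, had 0.003, 0.06 and -0.44. P4HB, which encodes protein disulfide isomerase itself, was higher in all 3, by 0.24, 0.18 and 0.21, and DNAJB11, a J-domain partner of BiP, stayed between 118.3 and 132.0 CPM in every library. CRELD2 had -0.15, -0.14 and 0.39, and the oxidase gene ERO1A -0.27, -0.09 and -0.17.

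Of 22 genes of ER-associated degradation 21 were tested and 0 passed (edgeR), with 11 lower and 10 higher and a median of -0.04. SEL1L and SYVN1, the adaptor and the ubiquitin ligase of the retrotranslocation complex to which HERPUD1 binds, had log2 changes of -0.55 and -0.57 in shCCT2 3, with 0.17 and 0.10 in shCCT2 1 and 0.09 and 0.03 in shCCT2 2. EDEM1, a mannosidase-like lectin and known XBP1 target, stood at 32.2, 25.6 and 30.3 CPM in set A and at 123.1 and 115.1 CPM in shCtrl 2 and shCCT2 3, an order of sets shared with HERPUD1 and XBP1. DERL2 had -0.04, -0.01 and 0.21. VCP, the segregase that pulls clients from the membrane, went the other way between sets, at 516.1, 579.9 and 518.4 CPM in set A and 227.6 and 241.0 CPM in set B.

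Translocation and N-glycosylation genes gave 0 calls among 24 tested (edgeR), with 13 lower and 11 higher and medians of 0.14, 0.07 and -0.17 in shCCT2 1, 2 and 3. SEC61A1, the pore of the translocon, had log2 changes of 0.47, 0.14 and -0.09, and SEC61B, its small subunit, -0.29, -0.31 and 0.13. The oligosaccharyltransferase genes STT3A and DDOST had -0.57 and -0.06 in shCCT2 3, and the signal peptidase gene SPCS3 -0.23.

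ER export and retrieval genes gave 0 calls among 21 tested (edgeR). Fitted values were lower for 17 of 21, against 51.5% of all tested genes, with a median of -0.09. In shCCT2 3, 17 of 21 were lower, against 51.2% of all tested genes. By 1.5-fold or more, 7 of 21 were lower and 0 higher, against 24.5% and 19.8% of all tested genes. The list median was -0.29 in shCCT2 3, whereas the medians in shCCT2 1 and shCCT2 2 were 0.12 and -0.01. LMAN1, the cargo lectin ERGIC-53, stood at 236.2, 227.5 and 221.0 CPM in shCtrl 1, shCCT2 1 and shCCT2 2, and at 379.8 and 125.1 CPM in shCtrl 2 and shCCT2 3. SEC24D, a cargo adaptor of COPII coats, stood at 45.8, 37.5 and 44.1 CPM in set A and at 131.9 and 54.7 CPM in set B. The KDEL receptors return escaped lumenal chaperones such as BiP, GRP94 and calreticulin to the ER. KDELR3 stood at 5.07, 4.65 and 5.43 CPM in set A and at 35.3 and 8.30 CPM in shCtrl 2 and shCCT2 3. KDELR2 had log2 changes of 0.12, -0.02 and -0.16, and KDELR1 -0.09, -0.20 and -0.42. LMAN1, SEC24D and KDELR3 had the lowest changes of the 21 genes in shCCT2 3, so they are not typical of the list. ERGIC2 had the highest, at 0.50.

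Over these 6 lists DESeq2 also called 0 genes, and an unadjusted p under 0.05 in edgeR was found for 4 genes, which is 3.64% of the 110 tested genes of the lists, against 7.41% of all tested genes. They were, all with a lower fitted value, CRELD1 and ERO1B of the folding list, CREB3L2 of the sensors and factors, and EDEM2 of the degradation list. They are named after their values were seen, because they are few. In shCCT2 3, 22 of the 110 genes (20%) were lower by 1.5-fold or more and 7 (6.36%) higher, against 24.5% and 19.8% of all tested genes. Past that fold were 2 lower (MBTPS2, CREB3L2) and 0 higher of 8 sensor genes, and 1 lower (EDEM2) and 3 higher (AUP1, NPLOC4, UFD1) of 21 degradation genes, where NPLOC4 and UFD1 encode cofactors of VCP. Of 24 translocation and glycosylation genes 4 were lower (SEC63, SSR3, SEC11C, OSTC) and 1 higher (SRPRB). ERO1B, an ER oxidase gene, stood at 10.4, 7.54 and 8.48 CPM in shCtrl 1, shCCT2 1 and shCCT2 2, and at 31.4 and 5.62 CPM in shCtrl 2 and shCCT2 3. CREB3L2, an ER-anchored transcription factor gene, stood at 21.9, 16.5 and 16.5 CPM in set A and at 87.4 and 30.0 CPM in set B. In both genes, as in HYOU1, LMAN1, SEC24D and KDELR3, shCtrl 2 was the highest of the 5 libraries.

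**Figure D5:**
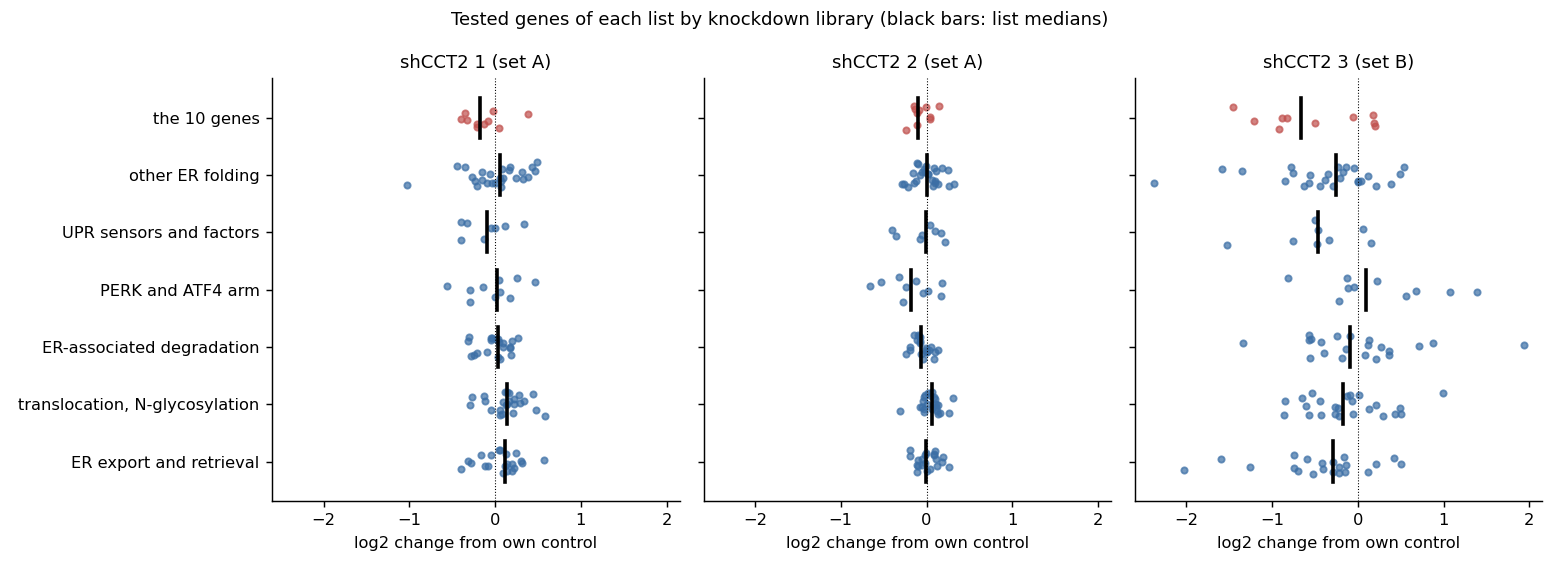
Log2 change from the control of the same set (x axis) for the tested genes of each list (rows, 1 point per gene) in shCCT2 1, shCCT2 2 and shCCT2 3 (panels), with black bars at the list medians. The points spread more widely in shCCT2 3, and the median of the 10 genes is -0.17, -0.10 and -0.66 in the 3 panels.

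Among 6554 other tested genes at or above the median level, the 5 whose 3 single-library changes lay nearest to the medians of the 10 were CD81, RPS25, MRPS6, ESD and KDM1B, with Euclidean distances of 0.04 to 0.07 in log2 units. CD81, which encodes a tetraspanin, had changes of -0.16, -0.10 and -0.63 in shCCT2 1, 2 and 3. RPS25 and MRPS6, which encode a cytosolic and a mitochondrial ribosomal protein, had -0.19, -0.11 and -0.60, and -0.12, -0.06 and -0.64. The likeness rests on 3 values per gene and is a description. In shCCT2 3 the median of the 10, -0.66, lay between HSPA5 (-0.50) and PDIA4 (-0.83) and was the value of no single gene among them.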

How the data were processed

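The authors deposited estimated counts per gene, headed as read counts per the file headers, in 2 tables. Between 86.2% and 87.9% of the values per library were whole, so they are expected counts, and they were rounded. All counts of the 10 genes were whole. Of the tools, HTSeq and STAR 1.5.1 are named in the submitters' processing notes, beside a mouse build (mm10), with no role given. The tables' identifiers are human, and the build and annotation used for counting are not given in the sources used here, nor is strand use, so reads of overlapping or antisense genes cannot be told apart. A deposited signal file per library holds coverage by relative position along transcripts, per the file headers. The share in the last 20% of windows was 14.3% to 17.3%.

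Tables were joined on the gene identifier (15187 shared genes; 763 found only in set A and 1032 only in set B were left out). Genes were tested in R 4.3.3 by quasi-likelihood in edgeR 4.0.16 with TMM scaling, edgeR's filter by group, and table and hairpin as terms (2 residual degrees of freedom), adjusted by Benjamini-Hochberg over all genes at 0.05. The SE is the fitted change divided by the root of F. Single-library changes use TMM-scaled CPM with 0.5 added. Counting errors are Poisson and cover counting only. Alternatives included DESeq2 1.42.0, other scalings and filters, a replicate block and each library left out. No pair of libraries was alike within sampling noise (chi-square per degree of freedom of 19.4 or more). The named genes were the 10 genes, CCT2, set members of each list and the nearest genes by likeness. All other genes, such as CRELD1, SESN2, UFD1, CDH1 and CD68, were named after their values were seen. The 10 genes, the lists and the tests were chosen with earlier results of these data known, and the 1.5-fold threshold after seeing the values.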

Additional observations from a re-analysis of the deposited data

Results flagged for a closer look

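In HSP90B1, SDF2L1 and XBP1 the change in the knockdown library of set B had the opposite sign to that in both knockdown libraries of set A. HSP90B1 had a log2 change of -1.46 in shCCT2 3 and of 0.05 and 0.04 in shCCT2 1 and 2 (adjusted p of the difference = 0.135, edgeR). SDF2L1 had 0.20 in shCCT2 3 and -0.35 and -0.14 in shCCT2 1 and 2 (adjusted p = 0.553, edgeR). XBP1 had 0.18 in shCCT2 3 and -0.33 and -0.13 in shCCT2 1 and 2 (adjusted p = 0.527, edgeR). None of these differences passed. With no scaling factors the HSP90B1 changes in set A were 3e-04 in shCCT2 1 and 0.03 in shCCT2 2. The SDF2L1 change of -0.14 in shCCT2 2 was close to its counting error (SE 0.13). Of all tested genes, 11% were lower in both set A libraries and higher in shCCT2 3, as SDF2L1 and XBP1 were, and 11.6% the reverse, as HSP90B1 was.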

How the results depend on the processing

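The set B values rest on 1 control and 1 knockdown library, and the fit has 2 residual degrees of freedom. No change of the 10 genes passed under any of the 14 alternatives. The count of genes called was 0 in the main test, 17 with DESeq2's Wald test and 0 to 2 with 1 library left out (2 without shCCT2 2), and none of the 10 was among them. The median fitted log2 change of the 10 genes, -0.28, ran from -0.63 to -0.11 with 1 library left out, and 7 to 9 of the 10 were then lower. At 2-fold in place of 1.5-fold, 2 in place of 5 genes were lower in shCCT2 3, a setting chosen after seeing the data. HERPUD1 turned to -0.15 without the table term, and the cause was not tested. With 1 library left out, HSP90B1 ran from -1.43 to 0.0445 and HYOU1 from -0.85 to 0.20, above 0 without shCtrl 2 or shCCT2 3, and they were 0.0450 and 0.20 in set A alone. SDF2L1 ran from -0.25 to 0.23 and XBP1 from -0.23 to 0.21, above 0 without shCtrl 1 or shCCT2 1. Dropping a control, or shCCT2 3, leaves 1 table alone to give the change. CCT2 passed with DESeq2 (log2 change -1.21, adjusted p = 3.81e-05). Other scalings and pseudocounts changed the sign of 0 of the 30 single-library changes of the 10 genes, though the median of all genes in shCCT2 3 moved from -0.02 to -0.13 with no scaling factors. With the replicate number as a block in place of the table, 0 genes were called, HSP90B1 turned to 0.065 and HERPUD1 to -0.84, and XBP1 moved to -1.25, SDF2L1 to -1.05 and DNAJB9 to -0.60. Whether the replicate numbers pair the libraries could not be told. Deviations from the group means correlated at 0.678 for the libraries numbered 1, both in set A. For those numbered 2, which lie in different tables, the correlation was -0.58. With 2 controls, the deviations of 1 control mirror those of the other. The correlation was 0.58 for shCCT2 2 with shCtrl 1 and 0.716 for shCCT2 3 with shCtrl 2. Each knockdown library thus had a positive correlation with the control of its own table, whatever its number. Pairing by number within a table was not tested.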
